A study of Mus musculus with 8 samples.

Results

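The collagen genes were taken as every array gene whose symbol is Col, a number, the letter a and a number, such as Col1a2 or Col15a1. By this rule 69 of 55681 probes and 44 of 34947 gene names were collagens. Of these, 38 genes had a probe well above background, by the scanner's own mark, on at least 4 of the 8 arrays and were tested, beside 27140 genes in all. The cells were satellite cells, the stem cells of skeletal muscle, sorted from the hindlimbs of C57BL/6J mice that were 3 to 4 months old. After a night in growth medium they received lentivirus that integrates into the genome and drives either eGFP alone (4 samples, numbered 1 to 4) or Hoxa9-eGFP (4 samples, with the same numbers). Both groups therefore carried a viral eGFP and were sorted for it, 5 days after transduction. RNA of each sample, 0.1 ug, was labelled with Cy3 and read on a 1-colour Agilent mouse array. A number shared by the groups is called an experiment here, and no label says that samples came from separate animals, so a p-value measures the spread between these samples only.

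Collagens are secreted or membrane proteins built from chains wound into a triple helix, in which glycine recurs at a fixed spacing along each chain. Fibrillar collagens form the load-bearing fibres of connective tissue, network-forming type IV collagen carries basement membranes, and FACIT collagens sit on the surface of fibrils. In muscle the satellite cell lies under the basement membrane of the fibre, and collagens V and VI, made by satellite cells and by interstitial cells, are known parts of its surroundings. Hoxa9 encodes a homeodomain transcription factor of the posterior Hox group.

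The 8 arrays marked 69.6% to 77.5% of spots as well above background, and no collagen spot was saturated. Levels are log2 signals relative to the array's own 75th percentile, so 0 is the 75th percentile and 1 unit is a factor of 2. Hoxa9 itself, by its brighter probe, read -0.98, -0.73, -0.17 and -0.07 with eGFP and 5.28, 5.42, 5.46 and 5.79 with Hoxa9-eGFP. Its other probe was lower by 1.75 with Hoxa9-eGFP, and which part of the transcript either probe reads was not settled. Of 9 satellite cell and myoblast markers, 8 were well above background on every array, Pax7, Myod1 and Cdh15 among them, and Chodl was on none. Pax7 fell by 1.31 and Vcam1 by 2.59 with Hoxa9-eGFP. All 8 were lower on average, as were 15222 of all 27140 genes tested. Of the 8, 5 passed the test as lower (4 with the replicate block), against 7.4% of all genes (7.84% with the block). The mean level of the 8 spanned 3.40 to 3.62 with eGFP and 2.25 to 2.63 with Hoxa9-eGFP. The part of this list in the collagen differences was not tested. In such bulk RNA, fewer cells of a type and less RNA per cell cannot be told apart.

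Collagens moved both ways with Hoxa9-eGFP. At a Benjamini-Hochberg adjusted p under 0.05 from limma, over all genes, 8 of the 38 tested collagens rose and 8 fell. The background was 7.7% of all genes tested called higher and 7.4% called lower, or 15.1% in either direction, against 42.1% of the collagens. The collagens' median difference was -0.21 and that of all genes -0.08. The Hoxa9-eGFP arrays lay all above or all below the eGFP arrays for 20 collagens, 10 each way, against 10.9% and 12.6% of all genes, or 23.5% together. All 16 called collagens were among these 20, and without overlap each had to have the same sign in 4 of 4 experiments. With the experiment number as a block, 8 collagens rose and 7 fell, against 8.36% and 7.84% of all genes.

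**Figure D1:**
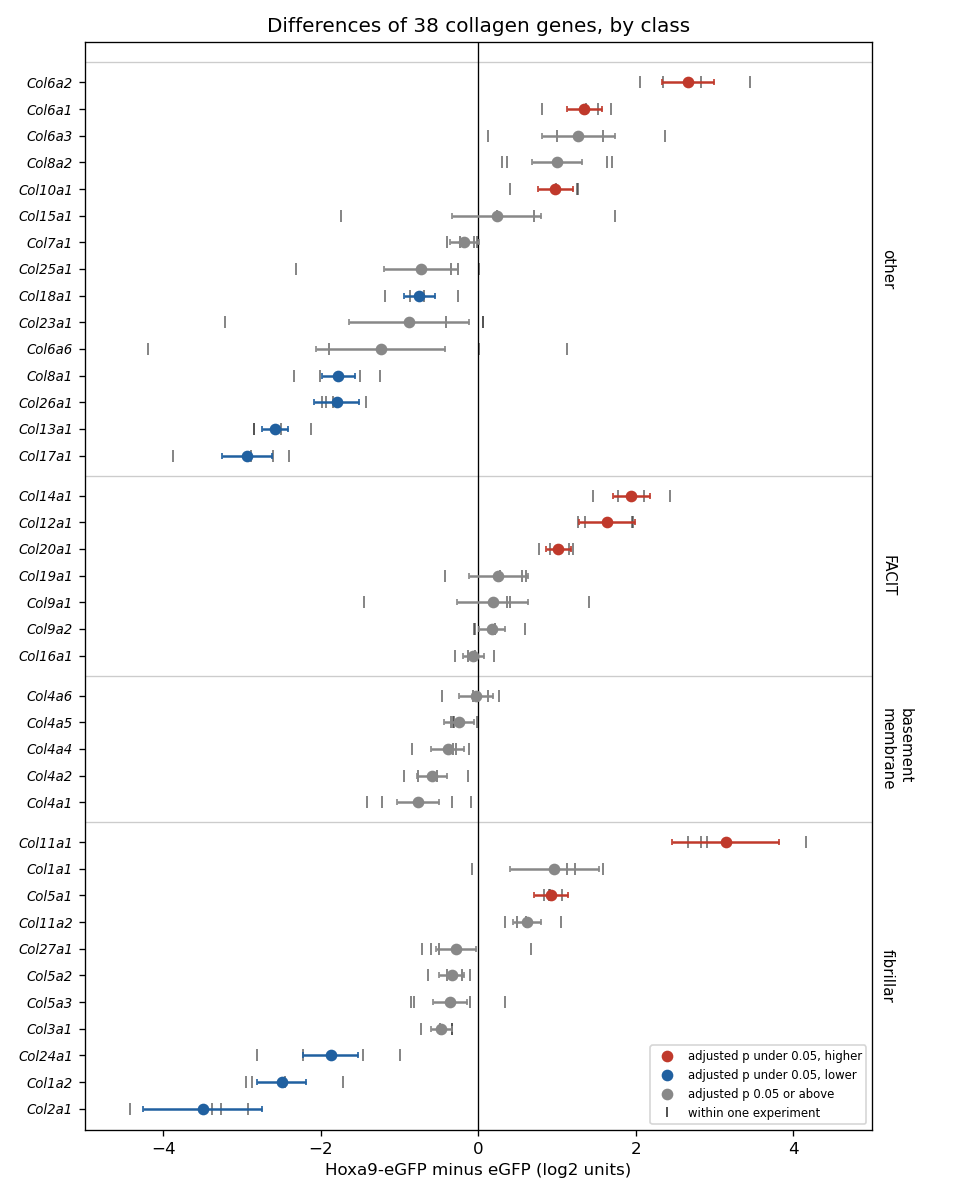
Difference between Hoxa9-eGFP and eGFP in log2 units (horizontal axis) for the 38 tested collagens, grouped by class. Dots are means with standard errors from limma, vertical ticks the 4 same-numbered experiments; red and blue mark an adjusted p under 0.05. Col11a1 lies at 3.14 and Col2a1 at -3.50, sizes that rest on arrays near background (1.01 and -1.17 with normexp), and no basement membrane chain passed the test.

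Among the 11 fibrillar collagens, all tested, 2 rose and 3 fell, with a median difference of -0.34. Col1a2, the second chain of type I collagen, the main fibre of tendon and of muscle connective tissue, read 4.44, 4.39, 4.76 and 4.92 with eGFP and 1.57, 1.93, 3.04 and 1.97 with Hoxa9-eGFP. The groups stood apart by more than a unit, the highest Hoxa9-eGFP array being replicate 3. Col1a2 thus fell 5.65-fold (log2 difference -2.50, SE 0.31, adjusted p = 0.0012). Its partner chain Col1a1 read 0.70, 0.29, 1.66 and 1.38 with eGFP and 0.62, 1.42, 2.89 and 2.95 with Hoxa9-eGFP. These groups overlapped, and the mean difference of 0.96 did not pass the test (adjusted p = 0.32). Col1a1 was lower by 0.08 in experiment 1 and higher by 1.13, 1.23 and 1.58 in the others.

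Col11a1 and Col2a1, whose products lie together in the fibrils of cartilage, changed in opposite directions. Col11a1 read -6.89, -7.58, -5.00 and -5.00 with eGFP, where only 2 arrays were well above background, and -3.99, -3.43, -2.17 and -2.33 with Hoxa9-eGFP. It rose by 3.14 (SE 0.68, adjusted p = 0.0165), with no overlap. All 4 Hoxa9-eGFP arrays were well above background, and Col11a1 met the filter only through them. Its call is thus not independent of the filter. Col2a1 read -3.07, -3.51, -1.42 and -2.36 with eGFP and -6.46, -7.93, -4.34 and -5.63 with Hoxa9-eGFP. It fell by 3.50 (SE 0.76, adjusted p = 0.0161), and because 2 of the Hoxa9-eGFP arrays were not well above background there, the size of this fall is uncertain. Col2a1 met the filter through its eGFP arrays, where it was high, so its call is not independent of the filter either. With normexp the differences were 1.01 for Col11a1 and -1.17 for Col2a1 and both passed. Of the chondrocyte markers, 6 of 9 were tested and none passed, and Hapln1 and Cnmd were well above background on no array. The mean level of those 6 spanned -3.02 to -2.57 with eGFP and -3.15 to -2.34 with Hoxa9-eGFP, and their part in the result was not tested. Sox9, Sox5 and Sox6, the factors that drive Col2a1 in cartilage, differed by -0.51, 0.04 and 0.89 and did not pass (adjusted p = 0.11, 0.94 and 0.49).

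Type V collagen, whose chains enter type I fibrils and set their width, moved by chain. Col5a1 read 1.83, 1.71, 1.54 and 1.05 with eGFP and 2.66, 2.63, 2.43 and 2.11 with Hoxa9-eGFP. All Hoxa9-eGFP values were above all eGFP values, and the rise of 0.92 (SE 0.21) passed the test at adjusted p = 0.0214; with slide as a block it missed it (0.0529). Col5a2 lay below eGFP on all 4 Hoxa9-eGFP arrays but by only 0.34, and Col5a3 differed by -0.36, and neither passed (adjusted p = 0.22 and 0.32). Col24a1, a fibrillar collagen of developing bone and cornea, read -3.53, -3.49, -2.89 and -3.08 with eGFP and -5.76, -4.49, -5.70 and -4.54 with Hoxa9-eGFP. It fell by 1.87 (SE 0.35, adjusted p = 0.0079), with 3 of the 4 Hoxa9-eGFP arrays well above background. Its eGFP arrays alone met the filter and its Hoxa9-eGFP arrays alone did not. With the normexp background correction the difference was -0.58 and missed the threshold (adjusted p = 0.0563).

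The other fibrillar chains moved less. Col3a1, the type III chain of reticular fibres, read 3.42, 3.32, 3.36 and 3.66 with eGFP and 3.08, 2.99, 2.88 and 2.94 with Hoxa9-eGFP. It was lower on all 4 arrays by a small and even amount (-0.47, SE 0.14) that missed the threshold, with adjusted p = 0.0536. Col11a2 was above eGFP on all 4 arrays by 0.62 (adjusted p = 0.0558). Col27a1, a fibrillar collagen of cartilage, differed by -0.29 and its groups overlapped (adjusted p = 0.49).

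**Figure D2:**
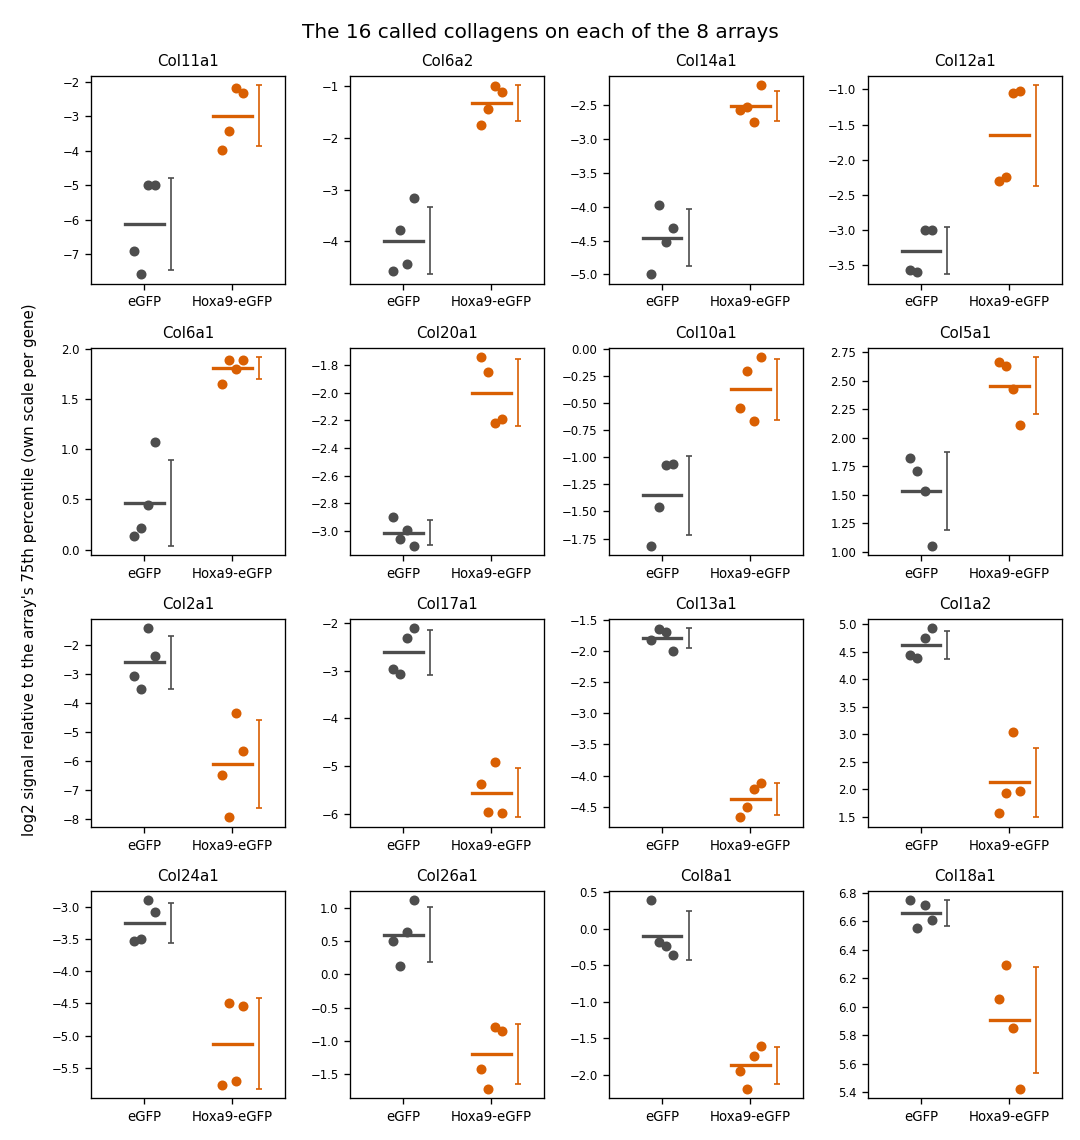
Log2 signal relative to the array's 75th percentile (vertical axis, scaled for each gene) on the 4 eGFP and 4 Hoxa9-eGFP arrays for the 16 collagens past the test, the 8 that rose in the upper rows. Points are arrays ordered by replicate number, horizontal lines group means and bars ± 1 SD; in all 16 panels the groups do not overlap.

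Type VI collagen, the beaded filament around muscle fibres whose loss causes muscular dystrophy, had its assembling chains higher. Col6a1 read 0.13, 0.21, 0.44 and 1.08 with eGFP and 1.65, 1.89, 1.80 and 1.89 with Hoxa9-eGFP. It rose 2.54-fold (log2 difference 1.34, SE 0.22, adjusted p = 0.0044), and the Hoxa9-eGFP arrays were the tighter group. Col6a2 read -4.57, -3.78, -4.44 and -3.16 with eGFP and -1.75, -1.44, -1.0 and -1.11 with Hoxa9-eGFP. It rose 6.34-fold (log2 difference 2.66, SE 0.33, adjusted p = 0.0013), again with no overlap; with normexp the difference was 1.64 and still passed. A second Col6a2 probe, well above background on no eGFP array and on all 4 Hoxa9-eGFP arrays, was at least 5.41-fold higher. This bound sets each dim array at the lowest signal that array marked well above background, or at the probe's signal where that was larger. Col6a3, the largest chain, read 0.30, -0.87, -0.21 and -0.13 with eGFP and 0.42, 0.12, 2.16 and 1.44 with Hoxa9-eGFP. Its mean difference of 1.27 was close to that of Col6a1, but the arrays overlapped and it did not pass (SE 0.46, adjusted p = 0.11; 0.0499 with normexp). Col6a6 was well above background on 3 eGFP and 2 Hoxa9-eGFP arrays and differed by -1.24 (SE 0.82, adjusted p = 0.37).

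Col6a1 and Col6a2 lie on chromosome 10, on the same strand, with starts 102414 bases apart in the RefSeq promoter table (GRCm38.p6). The 250 bases before each outermost start are printed because both genes rose, beside those of Col11a1, which rose too, at chr10:76726045-76726294 (minus strand), chr10:76623631-76623880 (minus strand) and chr3:114030290-114030539 (plus strand). Capitals mark CCAAT, the box bound by NF-Y, and TTTAT or TTTAC, short cores that posterior Hox proteins bind, on either strand.
Col6a1: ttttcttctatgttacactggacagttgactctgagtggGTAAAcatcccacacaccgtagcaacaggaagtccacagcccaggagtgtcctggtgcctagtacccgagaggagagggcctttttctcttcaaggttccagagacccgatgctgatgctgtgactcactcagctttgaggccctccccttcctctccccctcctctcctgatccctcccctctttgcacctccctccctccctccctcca
Col6a2: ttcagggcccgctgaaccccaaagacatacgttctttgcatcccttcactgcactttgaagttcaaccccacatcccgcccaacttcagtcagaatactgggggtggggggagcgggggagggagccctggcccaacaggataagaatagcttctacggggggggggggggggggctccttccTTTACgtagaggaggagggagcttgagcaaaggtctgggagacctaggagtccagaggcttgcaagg
Col11a1: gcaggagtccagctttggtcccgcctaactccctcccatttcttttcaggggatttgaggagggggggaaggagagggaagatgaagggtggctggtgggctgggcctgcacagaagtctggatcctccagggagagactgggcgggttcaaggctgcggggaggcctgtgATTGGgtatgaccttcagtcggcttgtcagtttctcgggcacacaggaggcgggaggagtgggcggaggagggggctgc
In these windows Col6a1 and Col6a2 each held TTTAC once, Col6a1 as the reverse complement, and Col11a1 held CCAAT once, as the reverse complement.

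FACIT collagens, which bind fibrils without forming their own, had rises and no fall: of 7 tested, 3 rose, and the median difference was 0.25. The type VI chains also had rises and no fall, with 2 of 4 tested higher and a median difference of 1.31. Of all genes tested, 7.7% were called higher and 7.4% lower. In sets of 7 and 4 genes a lack of falls is close to that share. Col14a1, which coats type I fibrils in tendon and muscle connective tissue, read -5.00, -3.98, -4.53 and -4.31 with eGFP and -2.57, -2.53, -2.75 and -2.21 with Hoxa9-eGFP. It rose by 1.94 (SE 0.23, adjusted p = 0.0011), and the closest arrays of the groups were more than a unit apart. With normexp the rise was 0.94, still past the threshold. The other kept Col14a1 probe had a like mean with eGFP (-4.42 against -4.46) but read -4.35 against -2.51 with Hoxa9-eGFP. The probe that stands for Col14a1 was therefore the brighter one only through its Hoxa9-eGFP values, and the other differed by 0.07. Col12a1, another coat of type I fibrils, read -3.57, -3.59, -3.00 and -3.00 with eGFP and -2.30, -2.24, -1.05 and -1.03 with Hoxa9-eGFP. It rose by 1.64 (SE 0.35, adjusted p = 0.0159); without eGFP replicate 2 the adjusted p was 0.0514. In both groups experiments 3 and 4 read above experiments 1 and 2. Col20a1 read -2.90, -3.05, -2.99 and -3.11 with eGFP and -1.74, -1.85, -2.22 and -2.19 with Hoxa9-eGFP. Its rise of 1.01 (SE 0.16, adjusted p = 0.0035) was seen by both of its probes.

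The remaining FACIT chains did not pass by their brightest probe. Col9a1 and Col9a2, chains of the type IX collagen on cartilage fibrils, differed by 0.18 each (adjusted p = 0.82 and 0.52). Col16a1 differed by -0.07 (adjusted p = 0.78), and its 3 probes ranged from -0.07 to 0.21. Col19a1 differed by 0.25 (adjusted p = 0.68) by its brightest probe, and its other probe differed much more, as given with the probes below. Col9a3 and Col22a1 were not tested; Col22a1, a collagen of the muscle-tendon junction, was well above background on 3 Hoxa9-eGFP arrays and no eGFP array.

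Of the 4 collagens that span the plasma membrane, 2 fell and 2 did not pass by their brightest probe. Col13a1, needed for the neuromuscular junction, read -1.82, -1.66, -1.70 and -2.0 with eGFP and -4.67, -4.50, -4.21 and -4.13 with Hoxa9-eGFP. It fell 5.99-fold (log2 difference -2.58, SE 0.17), with the lowest adjusted p of the family, 7.3e-05; with the normexp background correction the difference was -1.29 and still passed. Col17a1, a component of the hemidesmosomes that anchor epithelia, read -2.96, -3.07, -2.31 and -2.12 with eGFP and -5.37, -5.96, -4.91 and -5.99 with Hoxa9-eGFP. It fell by 2.94 (SE 0.32, adjusted p = 0.0006), and 2 of its Hoxa9-eGFP arrays were not well above background, so that the size of the fall is uncertain; with normexp it was -1.11. Col17a1 met the filter through its eGFP arrays, where it was high, so its call is not independent of the filter. Col23a1 and Col25a1 differed by -0.88 and -0.73 with overlapping groups (adjusted p = 0.49 and 0.37). Col23a1 turned to 0.18 with only probes well above background on all 8 arrays, and the probes of Col25a1 disagreed. Replicate 2 of Hoxa9-eGFP was the lowest array for both, at -7.24 and -2.86.

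The same 250-base windows of Col13a1, Col17a1 and Col1a2, which fell, lie at chr10:61979109-61979358 (minus strand), chr19:47692043-47692292 (minus strand) and chr6:4505368-4505617 (plus strand) of GRCm38.p6, with capitals as before.
Col13a1: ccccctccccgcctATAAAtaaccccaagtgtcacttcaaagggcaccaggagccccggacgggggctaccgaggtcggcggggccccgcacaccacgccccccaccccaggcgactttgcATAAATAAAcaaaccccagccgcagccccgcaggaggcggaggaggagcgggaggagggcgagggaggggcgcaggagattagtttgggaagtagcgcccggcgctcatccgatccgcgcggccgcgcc
Col17a1: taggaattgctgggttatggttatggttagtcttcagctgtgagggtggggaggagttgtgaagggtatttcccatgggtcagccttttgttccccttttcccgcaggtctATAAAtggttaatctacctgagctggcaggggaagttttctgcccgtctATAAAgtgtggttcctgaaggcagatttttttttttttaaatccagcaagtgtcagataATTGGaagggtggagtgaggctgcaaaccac
Col1a2: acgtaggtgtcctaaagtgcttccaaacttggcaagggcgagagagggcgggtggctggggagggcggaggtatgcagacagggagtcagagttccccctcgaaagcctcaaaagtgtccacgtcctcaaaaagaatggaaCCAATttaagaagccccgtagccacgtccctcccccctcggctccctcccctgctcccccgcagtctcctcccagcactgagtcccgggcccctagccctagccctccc
Col13a1 held TTTAT 3 times and Col17a1 held it 2 times, all as the reverse complement ATAAA, which in Col13a1 was once, and in Col17a1 each time, part of a TATAAA box. Col1a2 held 1 CCAAT on the plus strand, and Col17a1 held 1 as the reverse complement.

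Over the whole family the motif counts lay on both sides of those of all promoters. The table holds a promoter for 35 of the 44 collagens, in 38 windows, and none for Col1a1, Col2a1, Col4a3, Col5a2, Col9a3, Col12a1, Col14a1, Col22a1 or Col26a1. TTTAT was found in windows of 11 of the 35 genes, 2 that rose (Col6a2, at its inner start, and Col10a1) and 3 that fell (Col8a1, Col13a1 and Col17a1), and in 37.3% of all 32851 promoter windows of the table. TTTAC was found for 8 genes, against 28.3% of all windows, and CCAAT for 13, against 33.9%. TATAAA, whose reverse strand holds TTTAT, was found for 5, against 12.4%, and GGGCGG, the GC box bound by Sp1, for 21, against 32.7%. The longer Pbx and Hox sequences TGATTTAT and TGATTTAC, which contain the cores, were in no collagen window and in 0.837% and 0.496% of all windows. Collagens were counted by gene, over any of its windows, and all promoters by window, so the counts and the percentages are unlike measures. Every motif was searched on both strands, and a match is a description of the letters only.

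Short chain and remaining collagens split. Col8a1, a chain of the type VIII network of vessel walls and of Descemet's membrane, read 0.39, -0.18, -0.24 and -0.36 with eGFP and -1.95, -2.19, -1.74 and -1.61 with Hoxa9-eGFP. It fell by 1.78 (SE 0.21, adjusted p = 0.0010), with more than a unit between the groups. Its partner Col8a2 was above eGFP on all 4 arrays, by 1.0, and missed the threshold (SE 0.32, adjusted p = 0.0775). Col10a1, the collagen of hypertrophic cartilage, read -1.82, -1.46, -1.07 and -1.06 with eGFP and -0.55, -0.20, -0.66 and -0.07 with Hoxa9-eGFP. It rose by 0.98 (SE 0.22, adjusted p = 0.0210), without overlap, and missed the threshold with slide as a block (0.0776). Col26a1 read 0.51, 0.12, 0.64 and 1.12 with eGFP and -1.42, -1.73, -0.79 and -0.86 with Hoxa9-eGFP. It fell by 1.80 (SE 0.28, adjusted p = 0.0038), and a second probe that starts 5 bases away fell by 2.10.

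Of the multiplexins, basement membrane collagens that are cut to release endostatin-like fragments, Col18a1 read 6.75, 6.55, 6.72 and 6.61 with eGFP and 6.05, 6.30, 5.85 and 5.42 with Hoxa9-eGFP. It was lower on every Hoxa9-eGFP array, by 0.75 (SE 0.20, adjusted p = 0.0369), the smallest change of the 16. The replicate block gave adjusted p = 0.0571, and leaving out any array except Hoxa9-eGFP replicate 2 gave 0.0581 to 0.0895, and it was also lost with quantile normalization (0.0716), the median in place of the 75th percentile (0.107) and no filter (0.0586). Col15a1 differed by 0.23 with overlapping groups (adjusted p = 0.81). Col7a1, the anchoring fibril of skin, differed by -0.18 (adjusted p = 0.55).

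None of the 5 basement membrane chains tested passed, and all 5 were lower on average, with a median of -0.39. Col4a1 read 3.18, 2.95, 2.31 and 2.10 with eGFP and 1.77, 1.72, 2.22 and 1.77 with Hoxa9-eGFP. Its difference of -0.77 (SE 0.27, adjusted p = 0.096) came with an overlap at Hoxa9-eGFP replicate 3. Col4a2, which joins Col4a1 in the common type IV molecule, read 2.48, 2.27, 2.05 and 1.87 against 1.54, 1.50, 1.92 and 1.35, a difference of -0.59 (SE 0.19, adjusted p = 0.0746). For both genes the experiments differed: Col4a1 was lower by 1.42 and 1.23 in experiments 1 and 2 and by 0.10 and 0.33 in experiments 3 and 4. Within the slide that held eGFP replicate 4 and Hoxa9-eGFP replicate 3 it was higher by 0.12. The pair is transcribed head to head from chromosome 8, with starts 21 bases apart in the RefSeq table. Col4a5 and Col4a6, a like pair on chromosome X with starts 1343 bases apart, differed by -0.25 and -0.03, and Col4a4 by -0.39 (adjusted p = 0.44, 0.93 and 0.27). Col4a3 was not tested. The other collagens left untested were Col6a4, Col6a5 and Col28a1.

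Chains that build one molecule or fibril were then compared within each array, which removes any shift of a whole array. Of 10 pairs measured, 5 changed their log2 difference without overlap between the groups, each with an exact two-sided permutation p of 0.0286, the smallest that 4 against 4 arrays can give. After Benjamini-Hochberg adjustment over the 10 pairs each was 0.0571, so 0 pairs passed 0.05. With that smallest p, a pair could not have passed alone however large its change, so this count does not decide whether chains changed unequally. Col1a1 relative to Col1a2 rose by 3.46, with 2.80, 3.59, 2.94 and 4.53 in the 4 experiments. By 1 probe for each chain, this pair was therefore unequal in experiment 1 too, where Col1a1 itself hardly differed. Col5a1, Col5a2, Col11a1 and Col2a1 also rest on 1 probe each. Col11a1 relative to Col2a1 rose by 6.64, with both chains near background in 1 of the groups; with normexp it rose by 2.17, and Col1a1 relative to Col1a2 by 3.27. Col5a1 relative to Col5a2 rose by 1.26, within the narrow range of 1.02 to 1.70. Col8a1 relative to Col8a2 fell by 2.77, and Col6a1 relative to Col6a2 by 1.32, although both type VI chains rose. With normexp these differences were -1.70 and -0.48.

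Other pairs kept overlapping values. Col4a1 relative to Col4a2 changed by -0.17 (exact p = 0.343), with experiments from -0.48 to 0.19. Col6a1 relative to Col6a3 changed by 0.08 with experiments from -1.01 to 1.40, so a change of a unit either way was not detectable there (exact p = 0.943). Col9a1 relative to Col9a2 changed by 0.01 and Col4a5 relative to Col4a6 by -0.22 (exact p = 0.971 and 0.457). Col11a1 relative to Col11a2 rose by 2.52 with overlapping groups (exact p = 0.0571), and by 0.63 with normexp.

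**Figure D3:**
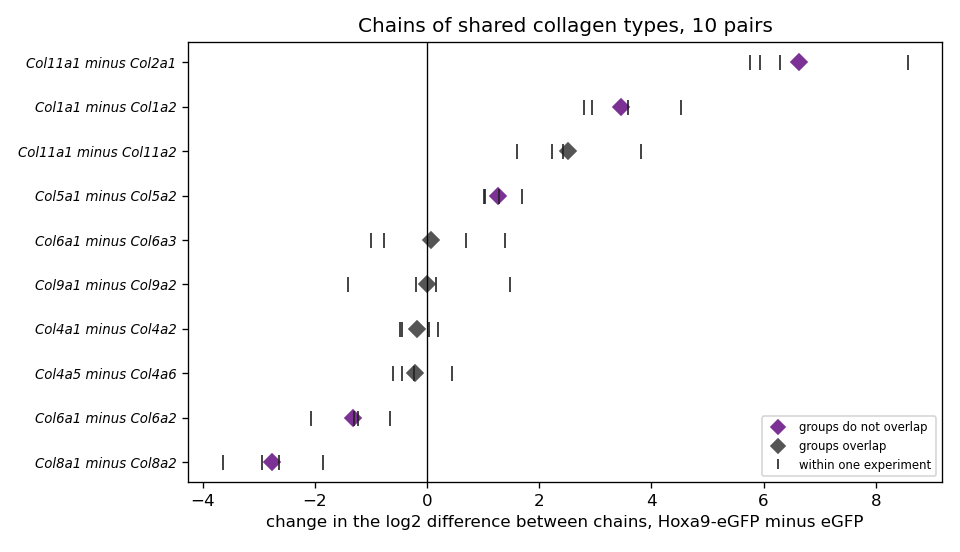
Change in the within-array log2 difference between chains, Hoxa9-eGFP minus eGFP (horizontal axis), for 10 pairs of collagen chains. Diamonds are means, purple where the 4 Hoxa9-eGFP arrays do not overlap the 4 eGFP arrays, and ticks are same-numbered experiments; Col11a1 against Col2a1 lies at 6.64 (2.17 with normexp), Col1a1 against Col1a2 at 3.46 (3.27) and Col8a1 against Col8a2 at -2.77 (-1.70).

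Several probes were kept for 10 of the collagens, and they did not always give one answer. In the fit of all 40807 kept probes, 6.7% were called higher and 6.64% lower (13.3% together). The brightest Col25a1 probe, which stands for the gene above, read -0.53, -0.55, -0.68 and -0.40 with eGFP and -0.87, -2.86, -0.68 and -0.66 with Hoxa9-eGFP. A second probe at chr3:129885684-129885743 (mm9, the build of the array files) read -3.27, -2.95, -2.0 and -1.64 with eGFP and -0.37, -0.39, 0.80 and 1.28 with Hoxa9-eGFP. It rose by 2.80, and the other kept probe by 2.50, both without overlap (adjusted p over all probes = 0.01 and 0.03). The probe that rose by 2.50 had 3 eGFP and 4 Hoxa9-eGFP arrays well above background, so its call is not independent of the filter. The fourth probe, on no eGFP array and 3 Hoxa9-eGFP arrays well above background, was on average at least 3.48-fold higher, but its groups overlapped and experiment 2 was lower by 0.94. The mean of the kept probes differed by 1.52 (adjusted p = 0.0589). Col25a1, a membrane collagen needed for motor nerves to enter muscle, therefore has no single direction here.

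The brightest Col25a1 probe is printed because it reads the collagen domain itself, at chr3:130270497-130270556 (mm9, plus strand). Capitals mark the glycine codons.
Col25a1 probe: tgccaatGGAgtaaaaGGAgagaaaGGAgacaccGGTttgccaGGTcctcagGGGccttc
Read in steps of 3 codons, all 6 positions were glycine codons, a repeat shared by 2 of the 69 collagen probes, the other being a Col15a1 probe. How far such a repeat binds transcripts of other collagens was not tested. Whether the other Col25a1 probes lie in exons or introns was not settled, since no annotation of mm9 was used here.

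Col19a1 showed the same kind of split. Its brightest probe (chr1:24286609-24286668, mm9) read -3.29, -2.99, -2.58 and -2.48 with eGFP and -3.01, -3.42, -2.02 and -1.88 with Hoxa9-eGFP. The other (chr1:24265650-24265709) read -4.80, -5.43, -4.19 and -3.78 with eGFP and -2.09, -2.46, -0.59 and -0.55 with Hoxa9-eGFP. The first overlapped and the second rose by 3.12 (SE 0.53, adjusted p = 0.01). With 3 eGFP and 4 Hoxa9-eGFP arrays well above background, the second met the filter through the Hoxa9-eGFP group, where it was high. Col14a1 rose by the probe given above and differed by 0.07 at its other probe, where Hoxa9-eGFP replicate 4 at -3.30 stood above the rest (adjusted p = 0.92). For Col18a1 the second probe differed by -0.61 and missed the threshold (adjusted p = 0.08). Both probes of Col20a1 passed in one direction. Both probes of Col6a2 and of Col26a1 did too, but these are not separate evidence. The second Col6a2 probe was kept through its Hoxa9-eGFP arrays alone, and the Col26a1 probes cover almost the same bases. Probes of Col4a4, Col16a1 and Col23a1 differed in sign, and none of them passed.

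**Figure D4:**
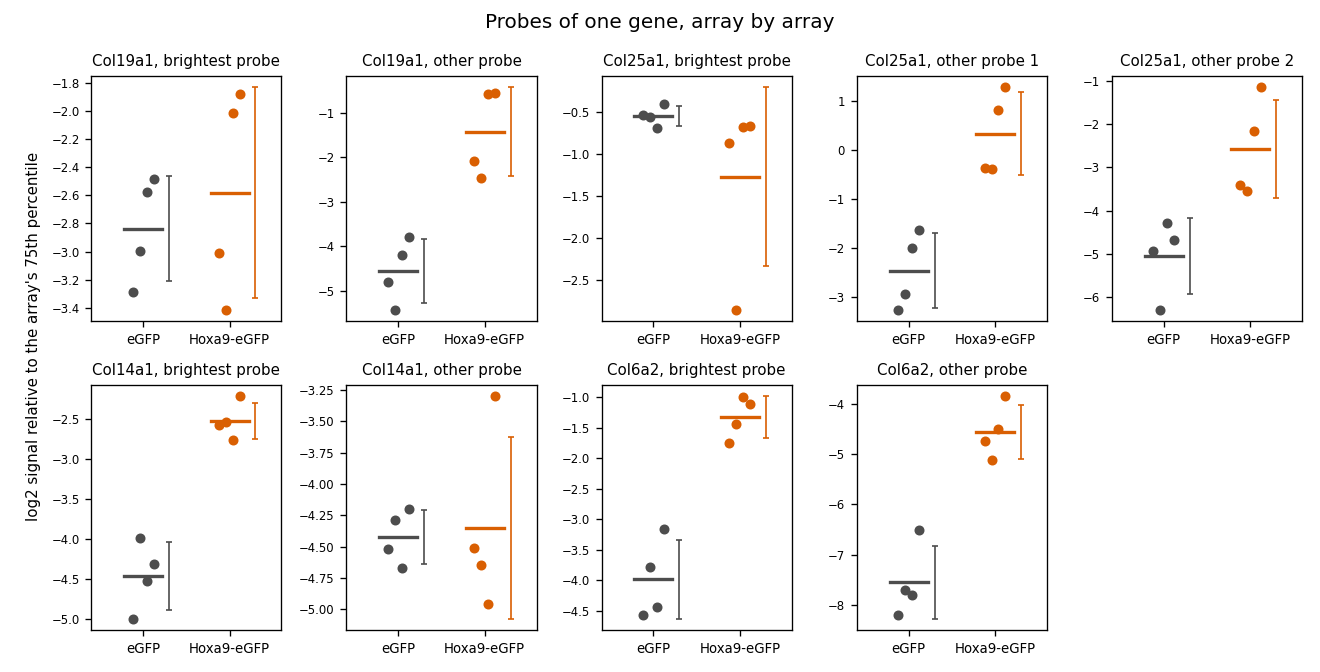
Log2 signal relative to the array's 75th percentile (vertical axis, own scale per panel) on the 4 eGFP and 4 Hoxa9-eGFP arrays, for the kept probes of Col19a1, Col25a1, Col14a1 and Col6a2. Lines are group means and bars ± 1 SD. The brightest probes of Col19a1 and Col25a1 overlap between groups while their other kept probes do not, and both Col6a2 probes are higher on all 4 Hoxa9-eGFP arrays.

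Genes that make, process, bind and break down collagen were read from the same fit. Over 7 lists and 60 tested genes, 9 rose and 6 fell, beside the 7.7% and 7.4% of all genes, and the lists' median difference was 0.08. Of 17 genes for chain hydroxylation, glycosylation and folding, 2 rose and 1 fell. Fkbp10, a collagen chaperone, read 5.38, 5.26, 5.07 and 4.98 with eGFP and 6.23, 6.41, 6.17 and 6.09 with Hoxa9-eGFP and rose by 1.05 (SE 0.15, adjusted p = 0.0022). Fkbp14, of the same family, rose by 0.56, and P3h2, a prolyl 3-hydroxylase, fell by 1.48 (adjusted p = 0.0215 and 0.0130). Serpinh1, the chaperone HSP47 that binds the triple helix, differed by -0.04 (adjusted p = 0.89).

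Of 10 genes for export and propeptide removal, 3 fell and none rose. Adamts14 read 6.83, 6.55, 5.99 and 6.18 with eGFP and 4.06, 4.39, 3.43 and 3.59 with Hoxa9-eGFP. Adamts2 read 2.10, 1.73, 1.81 and 2.05 against -0.28, -0.35, 0.20 and -0.25. Both encode proteases that cut the amino-terminal propeptide from fibrillar procollagen, and they fell 5.74-fold and 4.28-fold (adjusted p = 0.0006 and 0.0002). Sec24d, a coat protein of the vesicles that export procollagen, fell by 0.92 (adjusted p = 0.0342; 0.057 with the replicate block). Among 5 cross-linking enzymes Loxl1 fell by 0.93 (adjusted p = 0.0072). Lox and Loxl2 were higher on average by 1.52 and 1.29 and missed the threshold (adjusted p = 0.062 and 0.054), and both passed it with the replicate block (0.032 and 0.021). Ogn, a small proteoglycan that binds fibrils, rose by 1.79, the 1 of 7 tested in its list that passed (adjusted p = 0.0321).

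Of 10 collagen receptors, 4 rose and none fell, and the 4 are the alpha chains of the collagen-binding integrins. Itga11, of fibroblasts and binding fibrillar collagen, read -5.95, -4.23, -5.59 and -4.74 with eGFP and -3.40, -3.27, -2.74 and -2.29 with Hoxa9-eGFP. It rose by 2.20 and Itga2 by 1.99, and they were well above background on 2 and 1 of the eGFP arrays (adjusted p = 0.0085 and 0.0268). Both met the filter only through their Hoxa9-eGFP arrays, so these 2 of the 4 calls are not independent of the filter. Itga1 rose by 0.80 and Itga10 by 0.64, while their common partner Itgb1 differed by 0.01 (adjusted p = 0.0245, 0.0090 and 0.99). The list's median difference was 0.55. Of 6 tested genes of collagen breakdown, 2 rose and 1 fell. Mmp2, which degrades denatured and type IV collagen, read -0.83, -1.49, -0.84 and -1.06 with eGFP and 2.59, 2.17, 2.04 and 2.07 with Hoxa9-eGFP. Mmp13, a collagenase on no eGFP array and 4 Hoxa9-eGFP arrays well above background, was at least 3.09-fold higher. It passed the filter through those Hoxa9-eGFP arrays alone. Its adjusted p of 0.0249 and its place among the 2 that rose are thus not independent of the filter. Mmp15, a membrane metalloproteinase, fell by 2.41 (adjusted p = 0.0001). Fap, a fibroblast protease, differed by 2.35 and passed with the replicate block alone (adjusted p = 0.058 and 0.015). None of the 5 cartilage collagen regulators passed.

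**Figure D5:**
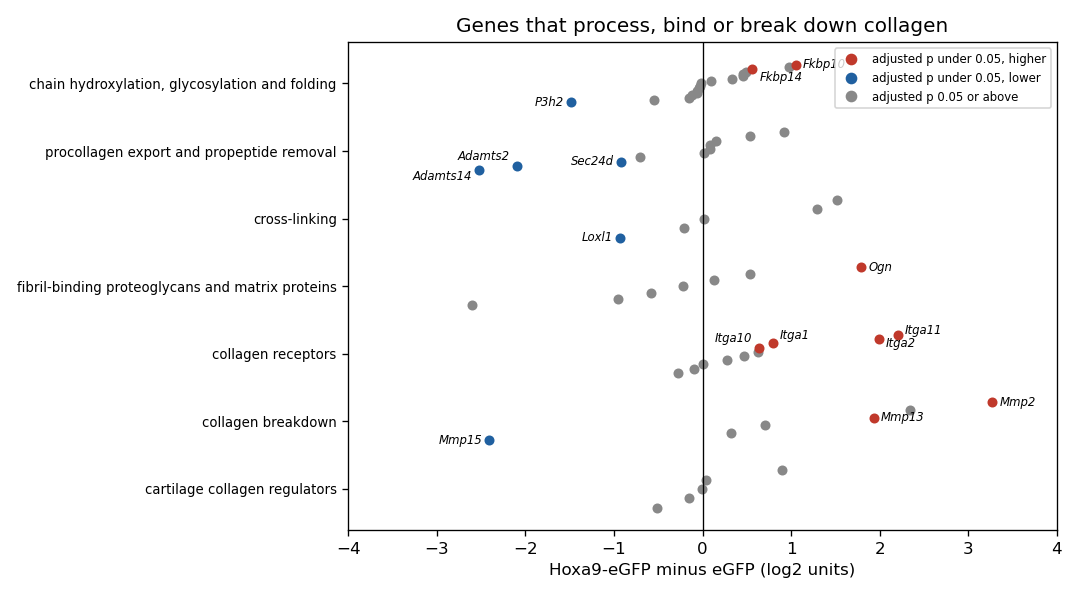
Difference between Hoxa9-eGFP and eGFP in log2 units (horizontal axis) for 60 genes in 7 lists, 1 row a list. Dots are genes, coloured by direction where the adjusted p was under 0.05; the 4 called receptors lie between 0.64 and 2.20, and the 3 called export and propeptide genes between -2.52 and -0.92.

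Markers of other cells were read beside the collagens, since fibroblasts and tendon cells make many of them. Of 11 fibro-adipogenic and fibroblast markers, 10 were tested, and 1 rose (Ly6a, by 4.55) and 1 fell (Fbln1, by 1.41). With the replicate block Thy1 was called higher and Lum lower too (adjusted p = 0.021 and 0.044). Dpt, another, was well above background on no array. The mean level of the 10 was -1.35, -1.50, -0.49 and -0.63 with eGFP and -1.46, -1.26, -0.01 and -0.27 with Hoxa9-eGFP. In both groups it was higher in experiments 3 and 4 than in 1 and 2. Among collagens, Col1a1, Col11a1 and Col12a1 had this order, but so did Col1a2, Col2a1 and Col26a1, which fell. Other collagens, such as Col13a1, did not have it. The mean of the differentiated muscle markers, given below, had the order too. The groups overlapped in the fibroblast marker mean, and its part in the collagen differences was not tested. Of 6 tenocyte markers 4 were tested; Scx fell by 1.39, Egr1 rose by 0.88, Thbs4 was called higher with the replicate block alone (0.0095), and Tnmd was well above background on no array. Their mean level spanned -0.32 to 0.34 with eGFP and -0.06 to 0.89 with Hoxa9-eGFP.

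Other lists moved in part. Of 9 smooth muscle and pericyte markers, Cnn1 rose by 2.57 and Acta2 and Notch3 fell by 1.33 and 2.15, Myh11 was called higher with the replicate block alone (0.044), and the list's mean spanned 0.18 to 0.87 with eGFP and 0.09 to 0.94 with Hoxa9-eGFP. Of 8 endothelial markers 5 were tested, Esam rose by 1.56, Cdh5 was called lower with the replicate block alone (0.046), Tie1 was well above background on no array, and the mean spanned -2.76 to -2.35 with eGFP and -3.06 to -2.40 with Hoxa9-eGFP. Of 8 Schwann cell markers 6 were tested, Ncam1 rose by 1.08 and Ngfr fell by 2.0, and the mean spanned -0.05 to 0.37 with eGFP and -0.90 to -0.26 with Hoxa9-eGFP. None of 6 tested leukocyte markers passed, with Ptprc on no eGFP and 2 Hoxa9-eGFP arrays, and the mean spanned -0.07 to 0.45 and -0.36 to 0.68. None of 9 markers of differentiated muscle passed without the replicate block; with it Myh8 and Tnnt3 were called higher and Myog and Myh3 lower (adjusted p = 0.0051, 0.032, 0.036 and 0.041). Their mean was 3.74, 3.53, 4.78 and 4.91 with eGFP and 4.02, 4.13, 4.87 and 5.14 with Hoxa9-eGFP. Esam and Myh11 were each well above background on 2 eGFP and 4 Hoxa9-eGFP arrays, so their calls are not independent of the filter. The part of these lists in the collagen differences was not tested.

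The 3 slides each carried both groups: eGFP replicates 1 and 2 with Hoxa9-eGFP replicate 4, eGFP 3 with Hoxa9-eGFP 1 and 2, and eGFP 4 with Hoxa9-eGFP 3. Because their groups did not overlap, all 16 called collagens had to have the same sign within 3 of 3 slides, so only the sizes are informative. Col1a2 was lower by 2.44, 3.01 and 1.88, Col13a1 by 2.39, 2.89 and 2.21, and Col6a2 was higher by 3.07, 2.84 and 2.16. Col11a1 was less even, at 4.90, 1.29 and 2.83. Col1a1, which was not called, was higher by 2.46, lower by 0.64 and higher by 1.51. With slide as a block 14 of the 16 kept an adjusted p under 0.05, all but Col5a1 and Col10a1.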

How the data were processed

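Satellite cell RNA of 8 samples was read on 1-colour Agilent arrays. The intensity values are the processed signals that the authors deposited per array, made with Agilent Feature Extraction 10.7.3.1 (per the submitters' processing notes; the file headers name it too), background-subtracted and not scaled between arrays. The deposited log2 value table had lost its decimal point in 86.1% to 87.3% of cells; once restored, it matched the log2 processed signal, up to a shift per array, to within 0.05 for at least 99.998% of probes, and the table served as an alternative only.

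Control spots and marked outliers were left out, repeated spots averaged, log2 taken and each array's 75th percentile subtracted (180 of 55681 probes lost). A probe was kept if 4 or more of the 8 arrays marked it well above background, and a gene's probe with the highest mean stood for it. Symbols were updated through a RefSeq table of GRCm38 (27656 probes matched, 1711 renamed, no collagen among them); the probe positions are mm9. The test was limma 3.58.1 (R 4.3.3) with group as the only term, two-sided, with p-values adjusted by Benjamini-Hochberg across 27140 genes; the fit was tested on simulated data. Chain pairs used exact permutation over arrays.

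The deviations of same-numbered samples from their group means correlated at 0.14, 0.23, 0.13 and 0.19, so the shared numbers of the titles were taken to pair the samples; some unlike pairs did too, up to 0.19. The main fit and the permutation test left this pairing out, and only the replicate block and the differences within experiments used it. The collagens, their classes, the lists and the markers were chosen with earlier results of these data known. Every collagen was named, and from each list up to 4 genes of lowest adjusted p and a few named for their role. The number of arrays limits the precision.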

Additional observations from a re-analysis of the deposited data

Results flagged for a closer look

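Of 76 groups of 4 arrays (38 collagens, each in both groups), 3 held an array far from the other 3, by the share of the group's range that the gap to its nearest neighbour takes (Dixon's criterion). Chance alone marks about 1 in 20 groups. For Col25a1, Hoxa9-eGFP replicate 2 read -2.86 while the other 3 lay between -0.87 and -0.66; the gap was 0.904 of the range. For Col4a1, Hoxa9-eGFP replicate 3 read 2.22 while the others lay between 1.72 and 1.77, a gap of 0.911. For Col8a2, eGFP replicate 4 read -4.97 while the others lay between -4.73 and -4.69, a gap of 0.876 over a span of less than 0.3 log2 units.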

How the results depend on the processing

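Over 18 alternatives and 678 results for single collagens, 632 kept direction and side of the threshold, 21 lost it, 9 gained it and 16 changed sign. Of the 16 called collagens, 11 kept the call in every alternative that tested them; the others were Col5a1, Col10a1, Col12a1, Col18a1 and Col24a1. The counts of collagens were 6 to 10 higher and 6 to 10 lower, and with the replicate block 8 and 7, where Col18a1 was lost at adjusted p = 0.0571; the block ended the call of no other collagen. No collagen that changed sign was called. Col4a6 gave 0.0272 with normexp and 0.0275 with slide as a block, which gave -0.0525 for Col9a1 and -0.0903 for Col15a1. Keeping only probes well above background on all 8 arrays gave 0.18 for Col23a1, and the mean of a gene's probes gave 0.0190 for Col4a4, 0.0475 for Col16a1 and 1.52 for Col25a1. Leaving out single arrays gave -0.197 to 0.0960 for Col4a6, -0.0396 to 0.61 for Col9a1 and -0.16 to 0.71 for Col15a1. Col19a1 passed with normexp, where another probe is its brightest (1.71, adjusted p = 0.0030), and with the mean of its probes (1.69, 0.0349). The 5 chain pairs without overlap were 5 in both alternatives. Over all genes, leaving out 1 array gave 1545 to 1873 called higher and 1304 to 1874 lower; the lowest counts came without eGFP replicate 2. The causes were not tested, except that leaving out an array leaves fewer samples. Over the 60 processing genes the block called 13 higher and 7 lower, against 9 and 6 without it. Normexp kept every sign among the 16 called collagens and shrank 7 differences by over 1.5 times: Col2a1, Col6a2, Col11a1, Col13a1, Col14a1, Col17a1 and Col24a1. The sizes given for these depend on the background correction.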
